A study of Mus musculus with 12 samples.

Results

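The integrin and laminin genes were examined in thymus, heart, lung and liver of WT, p53KO and p66KO mice. A gene was a member if its symbol in the probe table of the array named an integrin alpha or beta chain or a laminin alpha, beta or gamma chain. This gave 34 of the 18193 genes with a value, namely 16 integrin alpha chains, 8 integrin beta chains and 10 laminin chains. They were carried by 73 probe sets, and each gene was read from its probe set with the highest mean over the 12 arrays. Signals are log2 values, so that a difference of 1 is 2-fold. Levels of different genes were not set against each other, because probe sets differ in how strongly they bind.

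WT mice, p53 knock-out mice (p53-/-, the p53KO group) and p66 knock-out mice (p66-/-, the p66KO group) were all of the Sv/129 strain and 2 months old. p53 is a stress-activated transcription factor, and p66 is the longest product of the Shc gene, a redox protein of mitochondria. For each tissue and genotype, RNA of 4 mice was pooled and hybridised to 1 array, so that no group had a replicate. Spreads below are therefore over the 3 arrays of a tissue, 1 per genotype, and differences between mice were averaged within each pool. The labels name no agent for any group and tie neither deletion to a cell type. In RNA of whole tissue, fewer cells of a type and less RNA per cell cannot be told apart.

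Each tissue carried its own markers. The mean signal of the cardiomyocyte markers was 13.9 to 14.14 in heart, that of the hepatocyte markers 13.86 to 14.04 in liver, and that of the lung epithelium markers 13.1 to 13.17 in lung. The thymocyte markers had a mean of 9.93 to 11.22 in thymus and at most 7.39 elsewhere. The WT thymus array stood apart, with a correlation of 0.924 to 0.928 with the other thymus arrays, which had 0.982 with each other. It had a mean of 13.14 over the 10 salivary gland markers, against 5.61 and 5.52 in the p53KO and p66KO thymus. The WT heart had 8.71 on this list, against 6 and 6.21 in the other hearts. In lung, the hepatocyte markers had a mean of 10.91 in WT, 7.3 in p53KO and 9.92 in p66KO. The Shc1 probe set with the highest signal was at 8.57 to 9.09 in WT arrays and at 9.14 to 9.83 in p66KO arrays. Which Shc1 products it binds was not determined, so it does not check the p66 label, and Trp53 was not analysed here.

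Integrins are receptors made of an alpha and a beta chain, which join the outside of the cell to its actin cytoskeleton and signal in both directions. Some bind collagens, laminins or the RGD motif of fibronectin and vitronectin, and those of leukocytes bind counter-receptors on other cells. Laminins are trimers of an alpha, a beta and a gamma chain that build the sheet of the basement membrane. Muscle fibres, epithelia and vessels each assemble laminins with their own alpha chain.

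RefSeq windows of 250 bases before a transcript start (build GRCm38.p6) were found for 22 of the 34 members, in 25 windows. Those of 5 members are shown because their signals set tissues apart, Itga4 for thymus, Itgax and Itga8 for lung, Itga1 for lung and thymus, and Lamb2 for heart. Each is cut where the gene's outermost transcript begins and is written 5′ to 3′ on the gene's strand. Capitals mark the letters GAGGAA, its other strand TTCCTC, or CAGCTG, which reads the same on both strands.
Itga4 (chr2:79255176-79255425, plus strand): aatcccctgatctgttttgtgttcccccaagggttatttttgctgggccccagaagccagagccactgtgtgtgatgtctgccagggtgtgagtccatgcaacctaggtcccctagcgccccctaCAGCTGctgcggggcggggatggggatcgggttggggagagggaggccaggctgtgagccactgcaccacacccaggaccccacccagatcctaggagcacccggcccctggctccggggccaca
Itgax (chr7:128129300-128129525, plus strand): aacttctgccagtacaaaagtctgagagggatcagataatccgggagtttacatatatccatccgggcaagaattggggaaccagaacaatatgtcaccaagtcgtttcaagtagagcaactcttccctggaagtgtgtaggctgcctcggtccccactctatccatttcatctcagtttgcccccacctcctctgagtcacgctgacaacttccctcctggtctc
Itga8 (chr2:12301986-12302194, minus strand): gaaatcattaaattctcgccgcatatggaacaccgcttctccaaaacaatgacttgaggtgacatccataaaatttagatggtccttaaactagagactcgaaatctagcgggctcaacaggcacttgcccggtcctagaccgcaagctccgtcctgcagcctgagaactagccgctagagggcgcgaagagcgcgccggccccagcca
Itga1 (chr13:115101965-115102214, minus strand): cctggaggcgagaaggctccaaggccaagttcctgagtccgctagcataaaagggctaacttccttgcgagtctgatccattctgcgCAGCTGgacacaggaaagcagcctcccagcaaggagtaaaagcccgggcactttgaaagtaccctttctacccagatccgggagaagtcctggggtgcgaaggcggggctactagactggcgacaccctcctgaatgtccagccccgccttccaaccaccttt
Lamb2 (chr9:108479612-108479846, plus strand): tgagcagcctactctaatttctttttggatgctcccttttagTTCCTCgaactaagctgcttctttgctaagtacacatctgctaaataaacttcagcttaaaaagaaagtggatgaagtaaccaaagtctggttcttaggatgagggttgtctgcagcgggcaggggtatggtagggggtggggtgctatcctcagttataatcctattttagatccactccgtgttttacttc
GAGGAA or TTCCTC stood in 12 of the 25 full windows of members, against 23.3% of all 32851 windows of the same length. CAGCTG stood in 6 of the 25, against 13% of all windows. Of the stretches shown, those of Itga4 and Itga1 hold CAGCTG, that of Lamb2 holds TTCCTC, and those of Itgax and Itga8 hold none of these letters. These letters are a description of the sequence and say nothing of a bound factor.

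Signals of 21 of the 34 members set at least 1 tissue apart. To ask which tissue each gene marked, each tissue was compared with the mean of the other 3 in a limma model with terms for tissue and genotype. A gene was called at a Benjamini-Hochberg adjusted p under 0.05 over all 18193 genes together with a 2-fold difference, and an adjusted p below is from this model. These 21 members are 61.8% of the 34, against 31.4% of all genes called in at least 1 tissue, and 13 were called in none. Lung had 12 members called higher and 0 lower, where 9.25% and 3.97% of all genes were called. In liver 0 members were called higher and 10 lower, where 8.33% and 8.75% of all genes were called. In heart 7 were called higher and 5 lower, against 5.04% and 9.85% of all genes, and in thymus 6 and 6, against 7.11% and 8.56%. Without the p53KO heart array, or without the p66KO heart array, 3 members were called lower in heart. Without the WT thymus and WT lung arrays, 13 members were higher and 0 lower in lung, 6 higher and 9 lower in thymus, and the counts of heart and liver were as given. At an unadjusted limma p under 0.05 and without the fold limit, 2 members were higher in liver and 2 lower in lung. Of all 18193 genes, 3083 were higher in liver and 3822 lower in lung in this way. Over all members the median difference was 0.35 in lung, 0.08 in heart, -0.21 in thymus and -0.57 in liver, where the medians of all genes were -0.12, 0.07, -0.02 and -0.08.

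**Figure D1:**
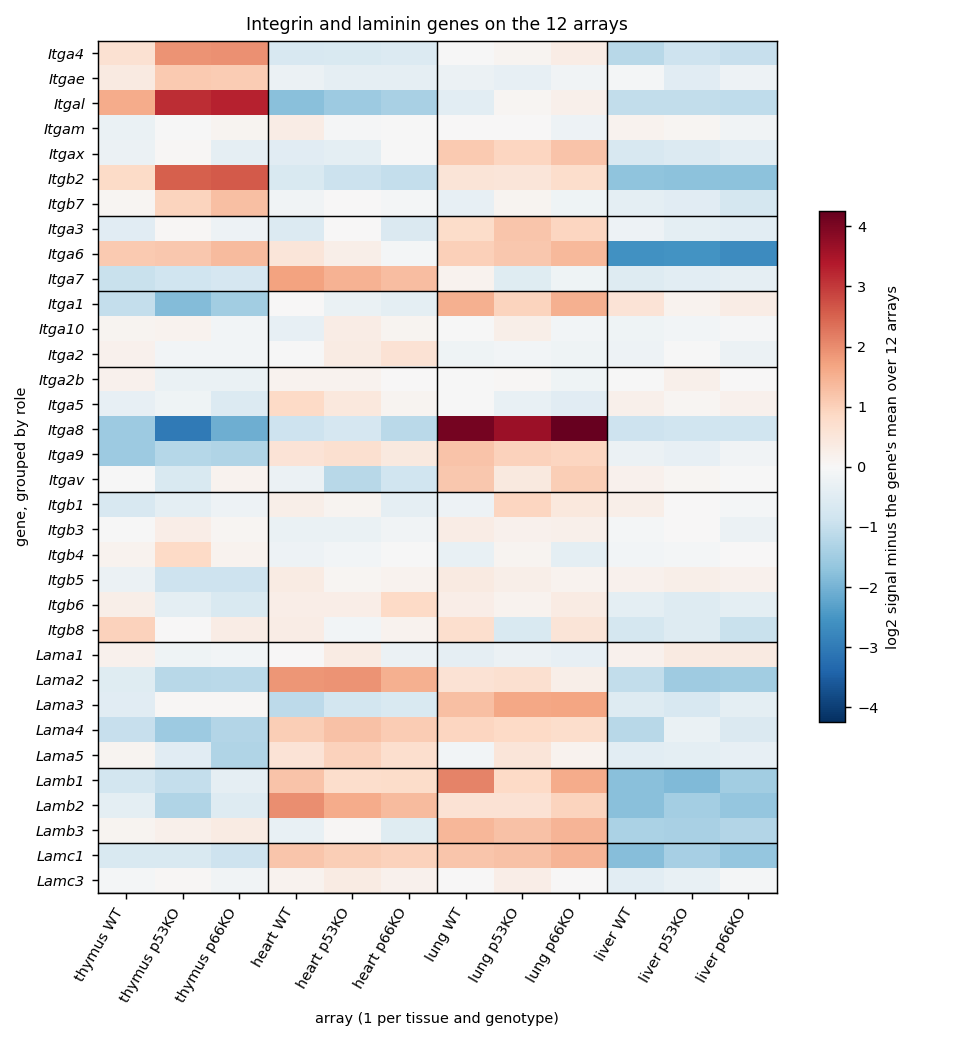
Log2 signal of each of the 34 genes on each of the 12 arrays, minus the gene's mean over the 12 arrays (colour), with genes in rows grouped by role and arrays in columns grouped by tissue. Itgal, Itgb2 and Itga4 stand out in thymus, Itga8 in lung, Lama2, Lamb2 and Itga7 in heart, and Itga6 and Itgb2 are low in liver.

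Signals that did not overlap between tissues were counted as well. All 3 lung arrays lay above the other 9 arrays for 9 members, against 8.51% of all genes, and below them for 0, against 3.44%. The 3 liver arrays lay below all others for 8 members, against 8.57%, and above them for 0, against 9.25%. The heart arrays lay above all others for 5 members, against 8.43%, and below them for 1, against 6.54%. The thymus arrays lay above for 5 members, against 5.54%, and below for 5, against 3.67%.

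Of the 7 leukocyte chains, 5 were called higher in thymus and 0 lower there, where 7.11% and 8.56% of all genes were called. Itgal is the alpha chain of LFA-1, which holds T cells to ICAM-bearing cells. Its signal in thymus was 9.79 in WT, 11.33 in p53KO and 11.46 in p66KO. In lung it was 7.75, 8.28 and 8.41, in liver 7.17, 7.17 and 7.13, and in heart 6.42, 6.67 and 6.83. On the probe set used, the thymus arrays lay above all others and the heart arrays below all others. Itgal was 3.55 ± 0.23 (SE) higher in thymus than in the other tissues, an 11.7-fold difference with an adjusted p of 3.06e-06 and the 72nd largest of all genes. In heart the difference was -2.08 ± 0.23 (adjusted p 6.96e-05). The other Itgal probe set also had its highest signals in thymus, at 7.65, 8.69 and 8.42 in WT, p53KO and p66KO. It did not rank heart lowest, with 7.31, 7.61 and 7.4 in heart against 6.89, 7.22 and 7.14 in liver.

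Itgb2, the beta chain that pairs with Itgal, Itgam and Itgax, had signals of 9.39, 11.13 and 11.21 in WT, p53KO and p66KO thymus. In lung it was at 9.14, 9.11 and 9.35, in heart at 7.93, 7.67 and 7.58, and in liver at 6.87, 6.84 and 6.84. The WT thymus lay just above the highest lung array, while the knock-out thymuses lay well above it, and liver was below every other array. The difference was 2.65 ± 0.3 in thymus (adjusted p 7.23e-05), -2.31 ± 0.3 in liver (adjusted p 1.35e-04) and -1.15 ± 0.3 in heart (adjusted p 0.0136).

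Itga4, the chain of the VCAM1 and fibronectin receptor of lymphocytes, was at 7.83, 9.09 and 9.12 in WT, p53KO and p66KO thymus. Its lung signals were 7.17, 7.28 and 7.48, its heart signals 6.5, 6.52 and 6.59, and its liver signals 5.98, 6.29 and 6.2. On the probe set used, the tissues did not overlap, in the order thymus, lung, heart and liver. The difference was 2.01 ± 0.19 in thymus (adjusted p 2.70e-05) and -1.35 ± 0.19 in liver (adjusted p 2.98e-04). On the Itga4 probe set that correlated best with it (0.934), thymus and lung overlapped. That one had 5.51, 6.58 and 6.82 in WT, p53KO and p66KO thymus and 5.94, 5.12 and 5.89 in lung. Itgae, the chain that binds E-cadherin together with Itgb7, was 1.13 ± 0.17 higher in thymus (adjusted p 4.61e-04), and Itgb7 1.01 ± 0.2 higher (adjusted p 0.00263). That of Itgb7 lay at the fold limit, and its WT thymus signal of 6.8 was below the 6.83 of the p53KO lung.

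Itgax, the CD11c chain known from dendritic cells and lung macrophages, took another course. Its signal was 8.28, 8.09 and 8.38 in WT, p53KO and p66KO lung and 6.48 to 7.22 on the other arrays, so that lung lay above all. It was 1.44 ± 0.14 higher in lung (adjusted p 3.33e-05). The mean of the 9 myeloid markers was 8.98 to 9.65 in lung and 7.27 to 8.95 elsewhere. These markers were divided. Lyz2 was at 14.09 to 14.36 in lung and at most 12.02 elsewhere, while Mpo was at 6.36 to 6.89 and 6.66 to 7.51. Itgam, the CD11b chain, lies next to Itgax on chromosome 7 with 0 protein-coding genes between them, and was called in no tissue. Its highest signal was 5.6, below the median of every array, so little can be said of its level.

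**Figure D2:**
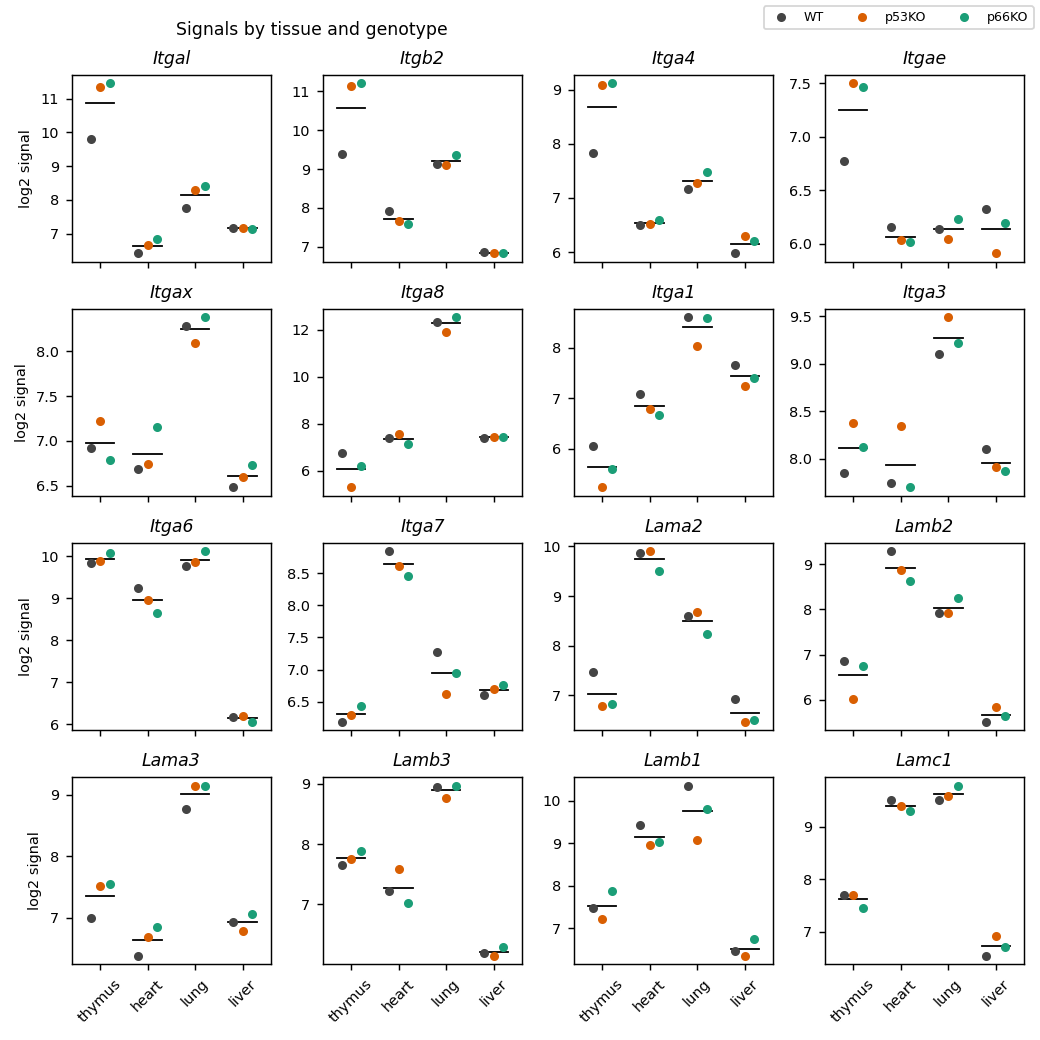
Log2 signal (vertical axis, its range set for each gene) of 16 genes in the 4 tissues, with 1 point per array coloured by genotype and a line at the mean of the 3 arrays. The thymus points of Itgal, Itgb2, Itga4 and Itgae show WT below both knock-outs, whereas the liver points of Itga6 and the lung points of Itga8 lie apart from the other tissues in every genotype.

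The laminin-binding alpha chains divided by tissue. Itga6, which pairs with Itgb1 or with the hemidesmosome chain Itgb4, was at 6.16, 6.2 and 6.06 in WT, p53KO and p66KO liver. Heart had signals of 9.24, 8.97 and 8.66, lung of 9.76, 9.87 and 10.12, and thymus of 9.84, 9.88 and 10.08. Liver lay far below the other tissues, and lung and thymus could not be separated. The difference was -3.46 ± 0.15 in liver, an 11-fold lower signal (adjusted p 2.81e-08) and the 70th lowest of all genes. In lung it was 1.58 ± 0.15 (adjusted p 2.22e-05) and in thymus 1.6 ± 0.15 (adjusted p 2.20e-05), each against a mean that includes the low liver signal.

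Itga7 is the laminin receptor chain of striated muscle. Its heart signals were 8.84, 8.62 and 8.45 in WT, p53KO and p66KO, and its lung signals 7.28, 6.62 and 6.95. The liver signals were 6.6, 6.7 and 6.76 and the thymus signals 6.19, 6.29 and 6.43. Heart was above and thymus below all other arrays. The difference was 1.99 ± 0.15 in heart (adjusted p 4.69e-06) and -1.12 ± 0.15 in thymus (adjusted p 2.16e-04), where it was -0.99 and missed the fold limit without the WT thymus array. The p53KO thymus had a mean of 9.5 over the skeletal muscle markers, against 6.49 in WT and 6.41 in p66KO, while Itga7 did not differ by more than 0.24 among the thymus arrays. Itga3, a chain of epithelial laminin receptors, was 1.27 ± 0.14 higher in lung (adjusted p 7.55e-05), with lung signals of 9.1, 9.49 and 9.22 above all others.

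Among the 3 collagen-binding chains, Itga1 was the 1 called in a tissue. Its signals in WT, p53KO and p66KO were 8.6, 8.03 and 8.59 in lung, 7.65, 7.24 and 7.4 in liver, 7.08, 6.79 and 6.67 in heart, and 6.05, 5.24 and 5.61 in thymus. The 4 tissues did not overlap. Itga1 was 1.77 ± 0.13 higher in lung (adjusted p 4.69e-06) and differed by -1.93 ± 0.13 in thymus (adjusted p 4.11e-06). Its neighbour Itga2, with 0 protein-coding genes between them on chromosome 13, and Itga10, a chain known from cartilage, were called in no tissue. Their tissue means spanned 0.47 and 0.16, against 2.77 for Itga1.

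Itga8 gave the widest range of all members. It pairs with Itgb1 and binds nephronectin and other RGD proteins. Its lung signals were 12.34, 11.92 and 12.53 in WT, p53KO and p66KO, and its heart signals 7.39, 7.57 and 7.13. In liver it was at 7.4, 7.42 and 7.42 and in thymus at 6.73, 5.29 and 6.21. Lung lay above and thymus below all others. The difference of 5.31 ± 0.23 in lung is 39.8-fold, with an adjusted p of 1.24e-07, and was the 17th largest of all genes. In thymus it was -2.94 ± 0.23 (adjusted p 8.53e-06). The lower calls in heart (-1.22) and liver (-1.15) arise against a mean of the other tissues that contains the lung.

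The other chains of the RGD group and Itga9 differed less. Itga9, which binds tenascin C and osteopontin, was 1.39 ± 0.13 higher in lung (adjusted p 2.02e-05) and differed by -1.79 ± 0.13 in thymus (adjusted p 5.11e-06), with signals of 8.72 to 9 and 6.25 to 6.58. Itgav, the vitronectin receptor chain, was 1.16 ± 0.16 higher in lung (adjusted p 3.45e-04) and differed by -1.02 ± 0.16 in heart (adjusted p 8.02e-04). Its lung signals were 10.67, 9.94 and 10.57 in WT, p53KO and p66KO. The fibronectin receptor chain Itga5 and the platelet chain Itga2b were called in no tissue, with tissue means of 6.96 to 7.8 and 7.64 to 7.88.

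On the probe sets used, none of the 6 other beta chains was called in any tissue by limma, where 31.4% of all genes were called in at least 1. At an unadjusted p under 0.05 there were 6 instances of a higher and 5 of a lower signal over the 4 tissues. Of all 18193 genes, 3083 to 4245 per tissue were higher at that p and 3822 to 4529 lower. Itgb1, the partner of most alpha chains, had tissue means of 9.12 ± 0.22 (SD, n = 3) in thymus, 9.57 ± 0.33 in heart, 9.63 ± 0.17 in liver and 9.94 ± 0.57 in lung. Arrays of neighbours in this order overlapped. Itgb5, a partner of Itgav, had -0.89 ± 0.13 in thymus with an adjusted p of 4.76e-04 and missed the fold limit. Its other probe sets set thymus further apart. The next brightest had 8.56, 7.28 and 7.55 in WT, p53KO and p66KO thymus and 9.38 to 10.06 on the other arrays. The remaining ones had 7.7 to 8.72 and 5.7 to 6.63 in thymus, against 9.15 to 9.54 and 7.4 to 9.32 elsewhere. Itgb8, another partner of Itgav, narrowly missed the fold limit in liver, at a difference of -1 ± 0.22 after rounding (adjusted p 0.00543). The tissue means of Itgb3, Itgb4 and Itgb6 spanned 0.47, 0.58 and 0.93.

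The laminin chains were mostly a matter of heart, lung and liver. Heart had 6 of the 10 called higher and 1 lower. Lung had 5 higher and 0 lower, liver 0 higher and 5 lower, and thymus 0 higher and 2 lower. Of all genes, 5.04% were called higher and 9.85% lower in heart, and 9.25% and 3.97% in lung. These shares were 8.33% and 8.75% in liver and 7.11% and 8.56% in thymus. Their median difference was 1.11 in heart, 1.05 in lung, -0.84 in thymus and -1.35 in liver. For the 24 integrin genes these medians were -0.04, 0.29, -0.12 and -0.34, and for all genes 0.07, -0.12, -0.02 and -0.08.

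**Figure D3:**
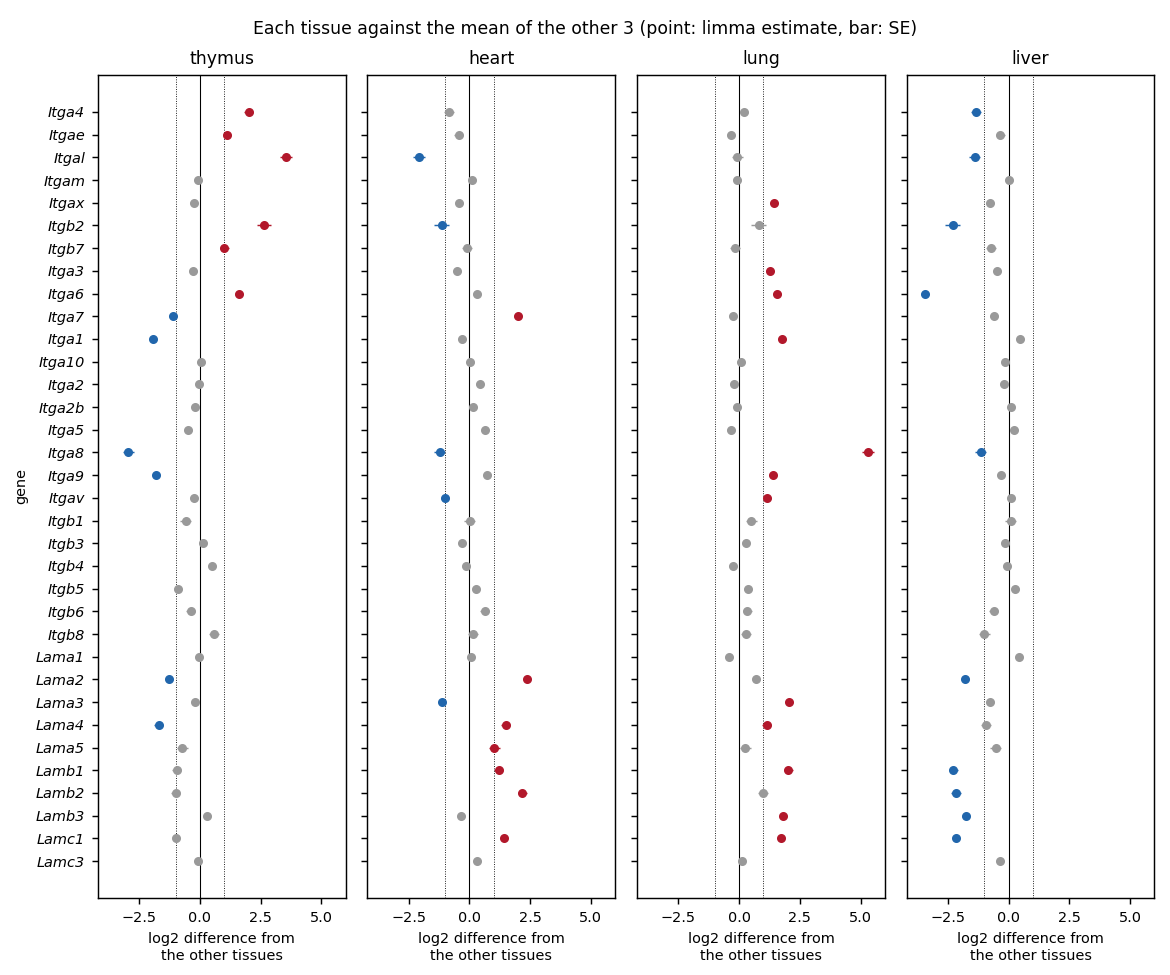
Difference of each tissue from the mean of the other 3 on the log2 scale (horizontal axis) for the 34 genes in rows, as the limma estimate with its SE, with red for genes called higher, blue for those called lower and grey for the rest. Dotted lines mark 2-fold. The red points number 6 in thymus, 7 in heart, 12 in lung and 0 in liver, and the largest is that of Itga8 in lung at 5.31.

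Lama2 is the alpha chain of the laminin around muscle fibres. Its heart signals were 9.87, 9.9 and 9.5 in WT, p53KO and p66KO, its lung signals 8.59, 8.67 and 8.23, its thymus signals 7.47, 6.79 and 6.82, and its liver signals 6.93, 6.47 and 6.51. Heart lay above all and lung above thymus and liver, which overlapped. The difference was 2.37 ± 0.14 in heart (5.17-fold, adjusted p 9.78e-07), -1.27 ± 0.14 in thymus (adjusted p 6.38e-05) and -1.79 ± 0.14 in liver (adjusted p 3.08e-06).

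Lama4, the alpha chain of vessel walls, was at 8.96, 9.13 and 8.97 in WT, p53KO and p66KO heart and at 8.81, 8.76 and 8.66 in lung. In liver it was at 6.71, 7.62 and 7.29 and in thymus at 6.92, 6.34 and 6.64. It was 1.49 ± 0.19 higher in heart (adjusted p 1.83e-04) and 1.13 ± 0.19 higher in lung (adjusted p 0.00115), and differed by -1.69 ± 0.19 in thymus (adjusted p 7.21e-05). The mean of the endothelial markers was 8.48 to 8.98 in heart, 10.14 to 10.31 in lung, 6.84 to 7.21 in liver and 6.43 to 6.89 in thymus.

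Lama3, the alpha chain of epithelial anchoring laminins, followed the reverse of Lama2 in heart. It was at 8.77, 9.14 and 9.15 in WT, p53KO and p66KO lung, 6.99, 7.52 and 7.55 in thymus, 6.93, 6.79 and 7.06 in liver, and 6.38, 6.69 and 6.85 in heart. Lung was above all, and thymus, liver and heart overlapped in part. It was 2.05 ± 0.13 higher in lung (adjusted p 1.12e-06) and differed by -1.13 ± 0.13 in heart (adjusted p 7.38e-05). Lama5, an alpha chain of adult basement membranes, was 1.02 ± 0.23 higher in heart (adjusted p 0.00742), near the fold limit. Lama1, a chain best known from the embryo, was called in no tissue and its signals were 4.85 to 5.61, below the array medians.

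Lamb2 was at 9.28, 8.86 and 8.62 in WT, p53KO and p66KO heart, 7.91, 7.91 and 8.25 in lung, 6.86, 6.01 and 6.75 in thymus, and 5.52, 5.83 and 5.65 in liver. The 4 tissues did not overlap. This beta chain of muscle and synaptic laminins was 2.18 ± 0.2 higher in heart (adjusted p 1.77e-05) and differed by -2.16 ± 0.2 in liver (adjusted p 1.01e-05).

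Lamb3, the beta partner of Lama3, was at 8.94, 8.77 and 8.97 in WT, p53KO and p66KO lung, 7.65, 7.76 and 7.88 in thymus, 7.22, 7.58 and 7.03 in heart, and 6.2, 6.15 and 6.29 in liver. Here too no tissues overlapped, but heart ranked below thymus. The difference was 1.81 ± 0.14 in lung (adjusted p 5.28e-06) and -1.77 ± 0.14 in liver (adjusted p 3.01e-06).

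Lamb1 and Lamc1, the beta and gamma chains of many laminins, were high in both lung and heart. Lamb1 was at 10.36, 9.09 and 9.81 in WT, p53KO and p66KO lung, 9.44, 8.97 and 9.03 in heart, 7.47, 7.22 and 7.87 in thymus, and 6.46, 6.36 and 6.76 in liver. Lamc1 was at 9.51, 9.6 and 9.79 in lung, 9.51, 9.4 and 9.31 in heart, 7.7, 7.69 and 7.46 in thymus, and 6.54, 6.92 and 6.7 in liver. On the probe sets used, both ranked liver lowest with no overlap, while heart and lung overlapped for Lamb1 and met at 9.51 for Lamc1. Lamb1 was 2.02 ± 0.19 higher in lung (adjusted p 2.12e-05), 1.21 ± 0.19 higher in heart (adjusted p 7.21e-04) and differed by -2.28 ± 0.19 in liver (adjusted p 4.90e-06). Lamc1 was 1.72 ± 0.13 higher in lung (adjusted p 4.57e-06), 1.41 ± 0.13 higher in heart (adjusted p 1.81e-05) and differed by -2.17 ± 0.13 in liver (adjusted p 3.54e-07). The second Lamc1 probe set, which correlated with the used one at 0.366, did not set lung or liver apart. It had 7.01, 6.7 and 6.23 in WT, p53KO and p66KO lung and 6.68, 6.68 and 6.65 in liver. In heart it had 7.92, 7.07 and 6.88, and in thymus 6.82, 6.52 and 6.18. Lamc3 was called in no tissue, with signals of 5.31 to 6.09.

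Genes that act with integrins and laminins were read in the same fit, as 3 lists. Of 14 basement membrane partners and laminin receptors, 6 were called higher and 0 lower in heart (all genes 5.04% and 9.85%), and 9 and 0 in lung (9.25% and 3.97%). There were 0 and 7 in liver (8.33% and 8.75%), and 0 and 7 in thymus (7.11% and 8.56%). The largest calls were Sgcb in heart (3.18 ± 0.15, adjusted p 1.83e-07), a sarcoglycan of the muscle membrane complex that binds laminin, and in lung the collagen IV chains Col4a4 (4.31 ± 0.13, adjusted p 1.07e-08) and Col4a5 (4.11 ± 0.18, adjusted p 1.18e-07). Bcam, a laminin alpha 5 receptor, was 3.08 ± 0.22 higher in lung (adjusted p 3.57e-06). Median differences of the list were 0.98 in heart, 1.64 in lung, -1.13 in liver and -0.99 in thymus, each of the same sign as those of the laminin chains.

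Of 17 cytoplasmic partners of integrins, 3 were called higher and 3 lower in heart (all genes 5.04% and 9.85%), and 2 and 6 in liver (8.33% and 8.75%). There were 7 and 0 in lung (9.25% and 3.97%), and 3 and 8 in thymus (7.11% and 8.56%). The kindlins, which activate integrins from within the cell, split by type. Fermt3, the kindlin of blood cells, was 3.78 ± 0.41 higher in thymus (adjusted p 5.74e-05), where Fermt2, the widely used kindlin, differed by -3.54 ± 0.18 (adjusted p 9.28e-07). The parvins, adaptors to actin, split likewise, with Parvg at 3.4 ± 0.34 (adjusted p 3.11e-05) and Parva at -2.6 ± 0.24 (adjusted p 2.00e-05) in thymus. Itgb1bp2, the muscle protein melusin that binds Itgb1, was 4.56 ± 0.17 higher in heart (adjusted p 4.51e-08). The adaptor Tns1 was 2.66 ± 0.15 higher in lung (adjusted p 6.65e-07).

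Of 11 integrin ligands, 0 were called higher and 5 lower in heart (all genes 5.04% and 9.85%), and 3 and 5 in liver (8.33% and 8.75%). There were 5 and 0 in lung (9.25% and 3.97%), and 1 and 4 in thymus (7.11% and 8.56%). Npnt, nephronectin, the ligand of the Itga8 receptor, was 4.12 ± 0.26 higher in lung (adjusted p 1.36e-06). In lung Icam1, a ligand of LFA-1, was 3.69 ± 0.28 higher (adjusted p 4.78e-06) and Cdh1, E-cadherin, 3.82 ± 0.17 higher (adjusted p 1.19e-07), whereas Cdh1 differed by -5.57 ± 0.17 in heart (adjusted p 1.03e-08). The plasma proteins Vtn and Fn1, ligands of the Itgav and Itga5 receptors, were 5.74 ± 0.37 (adjusted p 6.93e-07) and 2.79 ± 0.23 (adjusted p 4.06e-06) higher in liver. In thymus Tnc, tenascin C, was the 1 ligand called higher (2.63 ± 0.24, adjusted p 1.87e-05), while the Itga9 chain that binds it was called lower.

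Whether either deletion moved these genes was asked first across tissues, with the 4 tissues as replicates in the same limma model. In p53KO 0 of the 34 members were called at an adjusted p under 0.05, where 0.0055% of all genes were called, and in p66KO 0 members, where 0% of all genes were called. At an unadjusted p under 0.05 there were 5 members (14.7%) in each comparison, against 10.3% of all genes in p53KO and 3.94% in p66KO. The WT arrays are shared by both comparisons. The lowest adjusted p of a member was 0.302 in p53KO and 1 in p66KO, so that all differences across tissues are given as values.

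In p53KO the members of lowest p were Itga1, Itgav and Itgb8. Itga1 had a mean signal of 6.83 in p53KO and 7.34 in WT and was lower in 4 of 4 tissues, with a difference of -0.52 ± 0.14 (adjusted p 0.302). Itgav had 9.18 and 9.79 and was also lower in 4 of 4 tissues (-0.6 ± 0.17, adjusted p 0.323). Its probe set with the next highest signal ran the other way outside thymus. In p53KO and WT it had 6.8 and 6.2 in heart, 6.2 and 6 in liver, 6.3 and 5.6 in lung, and 6.1 in both thymuses. Itgb8 differed by -0.64 ± 0.24 (0.409), at signals below the array medians.

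In p66KO the members of lowest p were Lama2, Lama3 and Itgal, each with an adjusted p of 1. Lama2 had a mean of 7.77 in p66KO and 8.21 in WT and was lower in 4 of 4 tissues (-0.45 ± 0.15). Lama3 was higher in 4 of 4 (0.39 ± 0.13). Itgal had a difference of 0.67 ± 0.24 and was higher in 3 of 4 tissues, with thymus giving the largest part. In lung it was 0.66 higher. The thymocyte markers had a mean of 7.39 in p66KO and 6.23 in WT lung, and the B cell and plasma cell markers 8.67 and 7.45. Their part in this difference was not tested.

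Within each tissue, the knock-out array was compared with the WT array, with no test, and members were counted at 2-fold. In heart and liver 0 members reached 2-fold in either knock-out. There, 0.115% and 2.08% of all genes were 2-fold higher and lower in p53KO heart, and 0.181% and 1.67% in p66KO heart. In liver these shares were 0.0934% and 0.418% in p53KO and 0.0824% and 0.302% in p66KO. The member differences ran from -0.93 to 0.66 in heart and from -0.45 to 0.92 in liver.

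**Figure D4:**
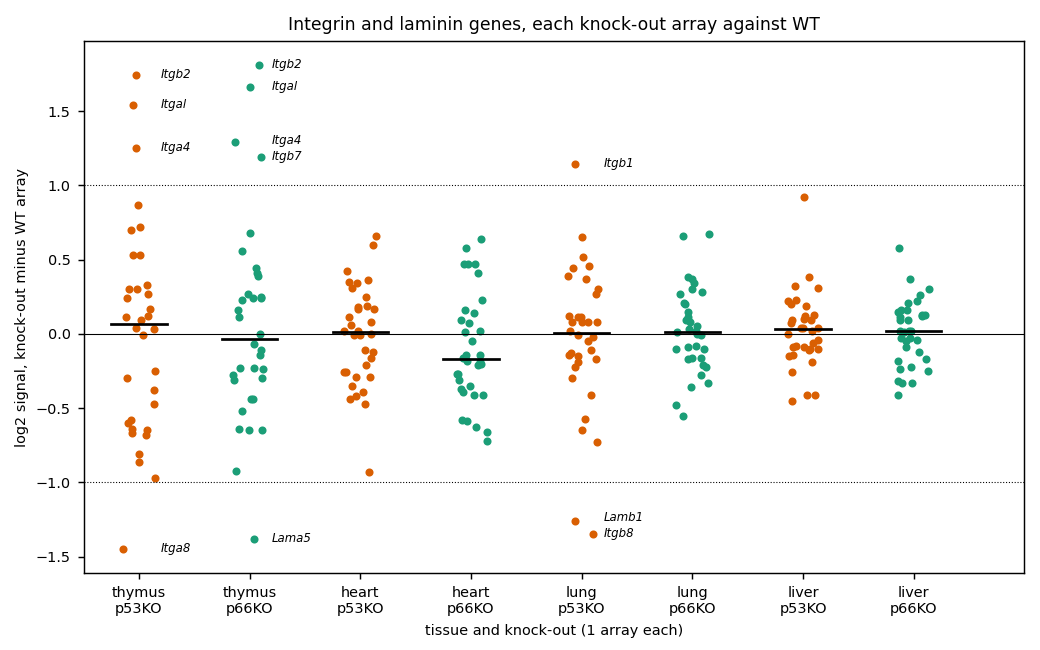
Knock-out minus WT signal on the log2 scale (vertical axis) for the 34 genes in each tissue and knock-out (horizontal axis), with 1 point per gene, a line at the median of the genes and dotted lines at 2-fold. Points beyond 2-fold are named and lie in both thymus columns and in the p53KO lung, while the points of heart and liver stay between -0.93 and 0.92.

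In thymus 3 of the 34 members were 2-fold higher and 1 lower in p53KO, where 8.89% and 4.81% of all genes were, and in p66KO 4 were higher and 1 lower, where 12.7% and 4.78% of all genes were. The counts of higher members were near the shares of all genes, so that they do not set the members apart. On the probe sets used, those higher were leukocyte chains, 3 of the 7 in both knock-outs and 1 more in p66KO. The rise was not confined to leukocyte chains on other probe sets. The Itgb1 probe set with the next highest signal was at 7.76, 8.72 and 8.94 in WT, p53KO and p66KO thymus, more than 2-fold higher in p66KO. Itgb2 was 1.74 higher in p53KO and 1.81 in p66KO, Itgal 1.54 and 1.66, and Itga4 1.25 and 1.29, from the WT signals given above. The other Itgal probe set, at the signals given above, was less than 2-fold higher in p66KO thymus. Itgb7 was at 6.8 in WT, 7.66 in p53KO and 7.99 in p66KO, a difference of 1.19 in the last. Both comparisons share the WT thymus array. After cyclic loess within thymus the p66KO differences of Itgb2, Itgal and Itga4 were smaller, at 0.98, 0.81 and 0.78. In p66KO thymus 1 member was then 2-fold higher and 2 were lower. With p66KO as the reference in place of WT, 0 members differed 2-fold in p53KO thymus, where 1.8% of all genes did, and their differences ran from -0.93 (Itga8) to 0.78 (Lama5).

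Markers of other cells moved with these differences. The mean of the 11 thymocyte markers was 9.93 in WT, 11.22 in p53KO and 11.14 in p66KO thymus, that is 1.29 and 1.21 higher, and the salivary gland markers ran the other way, as given above. The mean of the keratin and thymic epithelium markers was 9.1, 9.97 and 10.3. The 18S rRNA probe sets had a mean of 10.86, 10.3 and 5.97. Relative to the mean of the thymocyte markers, which takes 1.29 or 1.21 from every gene alike, Itgb2 differed by 0.45 in p53KO and 0.61 in p66KO, Itgal by 0.25 and 0.46, Itga4 by -0.04 and 0.08, and Itgb7 by -0.42 and -0.02. On that scale, which was chosen after the data were seen, 23 and 20 members were 2-fold lower, where 68.5% and 62.2% of all genes were, and 0 were higher, where 0.5% and 0.731% were. What part the content of the WT thymus had in these differences was not tested.

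The members that were lower in thymus were of other kinds. Itga8 was at 6.73 in WT and 5.29 in p53KO, a difference of -1.45, and at 6.21 in p66KO. Its other probe set differed by less than 2-fold, with 5.25, 4.93 and 5.05 in WT, p53KO and p66KO thymus, all below the array medians. Lama5 was at 9.37 in WT, 8.77 in p53KO and 7.98 in p66KO, which is -1.38 in p66KO. Its second probe set by signal ran the same way, with 7.44, 7.23 and 6.68. In the same WT, p53KO and p66KO thymuses the cardiomyocyte markers had means of 8.68, 6.12 and 8.45, the fibroblast markers 9.63, 8.78 and 9.11, and the smooth muscle markers 8.24, 7.67 and 7.89. Their part in the differences of Itga8 and Lama5 was not tested.

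The partner lists moved both ways in thymus. Of the 17 cytoplasmic partners, 6 were 2-fold higher in each knock-out, where 8.89% and 12.7% of all genes were, with 2 lower in p53KO and 1 in p66KO, where 4.81% and 4.78% were. Parvg was 2.26 and 1.98 higher in p53KO and p66KO, Fermt3 1.6 and 1.65, and Tln1, the talin that links integrins to actin, 1.28 and 1.22. Parva, the parvin of other cells, was at 7.95 in WT and differed by -1.73 and -1.37, and Fermt2 differed by -1.33 in p53KO. Lims2, an adaptor of the integrin-linked kinase complex that was 1.08 higher in p53KO, and Itgb1bp1, which binds the tail of Itgb1 and was 1.03 and 1.52 higher, are not particular to leukocytes. Of the 11 ligands, 2 were 2-fold higher and 2 lower in p53KO, and 3 higher and 1 lower in p66KO. Icam2 was 1.53 and 1.74 higher and Icam1 1.14 and 1.39 higher, whereas Thbs1, thrombospondin 1, differed by -1.46 and -1.83, and Cdh1 by -1 in p53KO. Tnc was 1.54 higher in p66KO. Of the 14 basement membrane partners and laminin receptors, 0 were higher, and 2 were lower in p53KO, Col4a5 (-1.05) and Col4a1 (-1.02).

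In heart 1 cytoplasmic partner was 2-fold lower in each knock-out and 1 ligand in p66KO, with 0 higher, where 2.08% and 1.67% of all genes were lower. Fermt3 was at 7.13 in WT, 5.99 in p53KO and 5.58 in p66KO heart, differences of -1.14 and -1.55, and in p53KO lung it differed by -0.94. Fn1 differed by -1.14 in p66KO heart. The WT heart is also the array with the higher salivary gland markers given above, whose part in these differences was not tested.

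In lung 1 member was 2-fold higher and 2 lower in p53KO, where 0.616% and 4.14% of all genes were, and 0 in p66KO, where 0.341% and 0.313% were. Itgb1 was at 9.34 in WT, 10.01 in p66KO and 10.48 in p53KO, a difference of 1.14 in the last. Its probe set with the next highest signal had 8.88, 9.2 and 9.95 on the same arrays. Another Itgb1 probe set, the brightest of the gene in lung, did not show this rise, with 10.51, 10.42 and 10.65. Itgb8 was at 5.95 in WT, 5.78 in p66KO and 4.59 in p53KO, a difference of -1.35 at signals below the array medians. It was also the 1 member 2-fold different between p53KO and p66KO lung (-1.19), where 3.38% of all genes were.

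Lamb1 was at 10.36 in WT, 9.81 in p66KO and 9.09 in p53KO lung, a difference of -1.26. Its probe sets were divided. A second probe set had 8.49 in WT and 7.65 in p53KO, and another had 6.29 and 7.44, which is the reverse. When probe sets that may bind related transcripts were left out, the latter stood for Lamb1 and the difference was 1.15.

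The WT and p53KO lung arrays also differed in other measures. The hepatocyte markers had a mean of 10.91 in WT and 7.3 in p53KO, and the ligand Vtn, made by liver, was at 10.26 and 7.6, a difference of -2.66. The mean signal of 18S rRNA was 5.52 and 9.79, and the 3′ minus 5′ signal of Gapdh, which grows with RNA degradation, was 2.29 and 0.66. The collagen IV chain Col4a3 was 2.2 higher in p53KO and 1.14 in p66KO, and Npnt differed by -1.61 in p53KO. What part these had in the differences of Itgb1, Itgb8 and Lamb1 was not tested.

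The spread of the members over the 3 arrays of a tissue was that of other genes. The median SD of the 34 was 0.22 in heart, 0.13 in liver, 0.19 in lung and 0.3 in thymus, and over all genes it was 0.21, 0.13, 0.2 and 0.3. The widest spread of a member was that of Itgb2 in thymus (SD 1.03). Below the array median on all 12 arrays were 6 members (17.6%), namely Itga10, Itgam, Itgb6, Itgb8, Lama1 and Lamc3, against 20.4% of all genes, and none of these 6 was called in a tissue.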

How the data were processed

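RNA of 12 pools (4 mice each) from 4 tissues and 3 genotypes had been labelled and hybridised to Affymetrix mouse genome arrays, for which the methods name 2 array types. The deposited log2 values had been made by the authors from the raw intensities in Partek 6.5 with RMA, that is background correction, quantile normalisation and a summary per probe set. Quantile normalisation gives all arrays nearly the same distribution (array medians 6.22 to 6.41), so a shift shared by most genes is removed. The number of arrays, 1 per group, limits the precision.

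Groups were taken from the sample labels. Of 45101 probe sets, 64 were controls, 34945 carried 1 gene symbol, 932 several and 9160 none, and those with 1 symbol were used, each of 18193 genes being read from its brightest probe set on average. Entrez numbers of 34741 were matched to RefSeq (GRCm38.p6), and 0 symbols differed. Tissue and genotype were fitted as fixed terms in limma 3.58.1 (R 4.3.3) with 6 residual degrees of freedom, which also hold differences between tissues in the effect of genotype, and Benjamini-Hochberg adjustment ran over all genes in each contrast. The fit was tested on simulated data. Arrays of a genotype may share mice between tissues, which the labels do not settle. Sequences are from RefSeq, and figures were drawn with Python 3.11.15 and matplotlib 3.10.9.

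The members and lists were chosen with earlier results of these data known. The text gives all members, with array values for the 5 largest calls of each tissue, the 3 lowest p of each knock-out fit and up to 4 members each way past 2-fold, and up to 3 genes per partner list and tissue. Alternatives were other scalings, other probe set rules, other thresholds and arrays left out.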

Additional observations from a re-analysis of the deposited data

How the results depend on the processing

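Of 957 values of a called member in a tissue under an alternative, 913 kept their direction and their call and 44 kept the direction and lost the call, most often Itgb7 in thymus (9 settings), Itgav in heart (8) and Lama5 in heart (7). All 76 values of members across tissues stayed uncalled. Leaving out each array in turn gave 6 to 7 members higher in heart, 0 to 0 in liver, 12 to 13 in lung and 4 to 6 in thymus, and 3 to 6 lower in heart (3 without the p66KO or the p53KO heart), 10 to 12 in liver, 0 to 0 in lung and 6 to 9 in thymus. Leaving out the WT thymus and WT lung together moved none of these counts by more than 1.5 times. With cyclic loess over all arrays, 10 were lower in thymus. With the mean of all probe sets, 3 were lower in heart, and with brighter genes alone 3 were higher in thymus. With no fold limit, 8 were lower in heart, 19 in liver, 1 in lung and 12 in thymus, and 1 was higher in liver. Within tissues, a 1.5-fold limit gave 3 members in p53KO and 5 in p66KO heart, 1 in p53KO liver, 6 in p53KO and 2 in p66KO lung, and 15 in p53KO and 10 in p66KO thymus. A 3-fold limit left 0 in p53KO lung, 1 in p53KO thymus and 2 in p66KO thymus. Repeated quantile normalisation gave 7 in p53KO thymus (3 higher, 4 lower), cyclic loess within a tissue 3 in p66KO thymus (1 higher, 2 lower), and centring on array medians 1 in p53KO heart. The mean of all probe sets gave 1 in p66KO lung and 2 in p53KO thymus. With the other knock-out as reference there was 1 in p53KO and 1 in p66KO lung and 0 in either thymus. Relative to the thymocyte markers, an alternative chosen after the data were seen, there were 23 in p53KO and 20 in p66KO thymus, and Itga4 in p53KO (-0.04) and Itgb7 in p66KO (-0.02) fell below 0, as any gene does whose rise was smaller than the value taken from all genes, so these signs test nothing about either gene. Lamb1 in p53KO lung changed sign (1.15) without probe sets that may bind related transcripts, because another probe set then stood for it. Other causes of these moves were not tested. No paired analysis was possible because the labels number no replicates and each group has 1 array.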

Other observations

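Several members had probe sets that ran apart. The probe set used for Itgb1 was called in no tissue, but another Itgb1 probe set was at 10.5, 10.7 and 10.4 in WT, p53KO and p66KO lung and between 4.24 and 5.27 on all other arrays. This probe set was noticed after its values were seen, and which transcript it binds was not determined. For Itgav, 2 of the 4 probe sets not used correlated with the used one at -0.816 and -0.737 over the 12 arrays, as a description, at signals of 5.57 to 6.82 and 4.59 to 5.39. For Lama3 the other probe set had -0.538 at 5.39 to 5.88, and for Itgb3 it had -0.44 at 5.8 to 6.57. For Itga8 the other probe set was also highest in lung, with 6.04 in WT, 9.01 in p53KO and 8.6 in p66KO, so that its WT lung stood below both knock-outs where the used probe set had 12.34, 11.92 and 12.53.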
